A study of Mus musculus with 12 samples.

Results

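The inflammasome and pyroptosis genes described here are 10 of the 22947 genes measured in epididymal white adipose tissue (eWAT), chosen by symbol: *Nlrp3*, *Aim2*, *Nlrc4*, *Nek7*, *P2rx7*, *P2rx4*, *Pycard*, *Casp1*, *Casp4* and *Gsdmd*. Their RNA was measured in 12 libraries from male C57BL/6J mice that were housed singly, fed their diet for 16 weeks and killed at 21 weeks of age after 12 h of fasting, with 3 mice in each of 4 groups. The ND group ate a normal diet, the HFD group a high-fat diet, the CLE group the HFD with an ethanol extract of chrysanthemum leaf at 1.5% by weight, and the LU group the HFD with luteolin, a flavonoid of the plant, at 0.003% by weight. ND mice 2, 3 and 4, HFD mice 12, 15 and 18, CLE mice 2, 4 and 11, and LU mice 2, 3 and 8 were analysed, and values are given in this order. All mice were wild type, and whole tissue was extracted, so that adipocytes and every other cell type in the depot contributed. Levels are FPKM, fragment numbers scaled to transcript length and to library size, summed over the transcripts of a gene.

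An inflammasome is a protein complex that forms in the cytosol when a sensor detects damage or microbial products. The sensor recruits an adaptor and a caspase, and the active caspase matures interleukin (IL)-1β and IL-18 and cuts gasdermin D, whose fragment opens pores in the plasma membrane and can end in the lytic cell death called pyroptosis. In adipose tissue the pathway is studied mainly in macrophages, where lipids, extracellular ATP and dying adipocytes are regarded as triggers, and activation itself is an assembly of proteins, so that RNA levels show the supply of components and not the activity of the complex.

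The 10 genes spanned a wide range of levels. Over the 12 libraries, the mean FPKM was highest for *P2rx4* (54.6) and *Nek7* (49.6), followed by *Gsdmd* (10.8), *Casp1* (9.48), *P2rx7* (9.11), *Casp4* (6.96), *Aim2* (6.66), *Pycard* (4.92), *Nlrc4* (1.36) and *Nlrp3* (0.870). The ranges of *P2rx4* (28.7 to 111) and *Nek7* (44.7 to 53.5) overlapped, as did those of every other neighbouring pair in this order except *Nek7* and *Gsdmd* (7.53 to 14.1), where the lowest library of the one was above the highest of the other. *P2rx4* came first through the HFD group (mean 96.9 FPKM, against 51.6 for *Nek7*), while *Nek7* had the higher mean in ND (49.9 against 30.5) and in CLE (49.7 against 43.5), and the means in LU were 47.3 for *Nek7* and 47.6 for *P2rx4*. Genes were tested with limma on log2(FPKM + 1) where FPKM reached 1 in at least 3 libraries, which 12775 genes did. All 10 passed, 8 of them with at least 1 FPKM in all 12 libraries. *Nlrp3* reached 1 FPKM in 5 libraries, 3 of HFD and 2 of LU, and *Nlrc4* in 7 libraries, 3 of HFD, 3 of LU and 1 of CLE, so both entered the test through the groups in which they were higher. A gene was called when its adjusted p (Benjamini-Hochberg, over all genes tested) was under 0.05 and its fold change over 1.5 on the log2(FPKM + 1) scale. This scale makes the changes of low genes look smaller, here those of *Nlrp3* and *Nlrc4*.

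**Figure D1:**
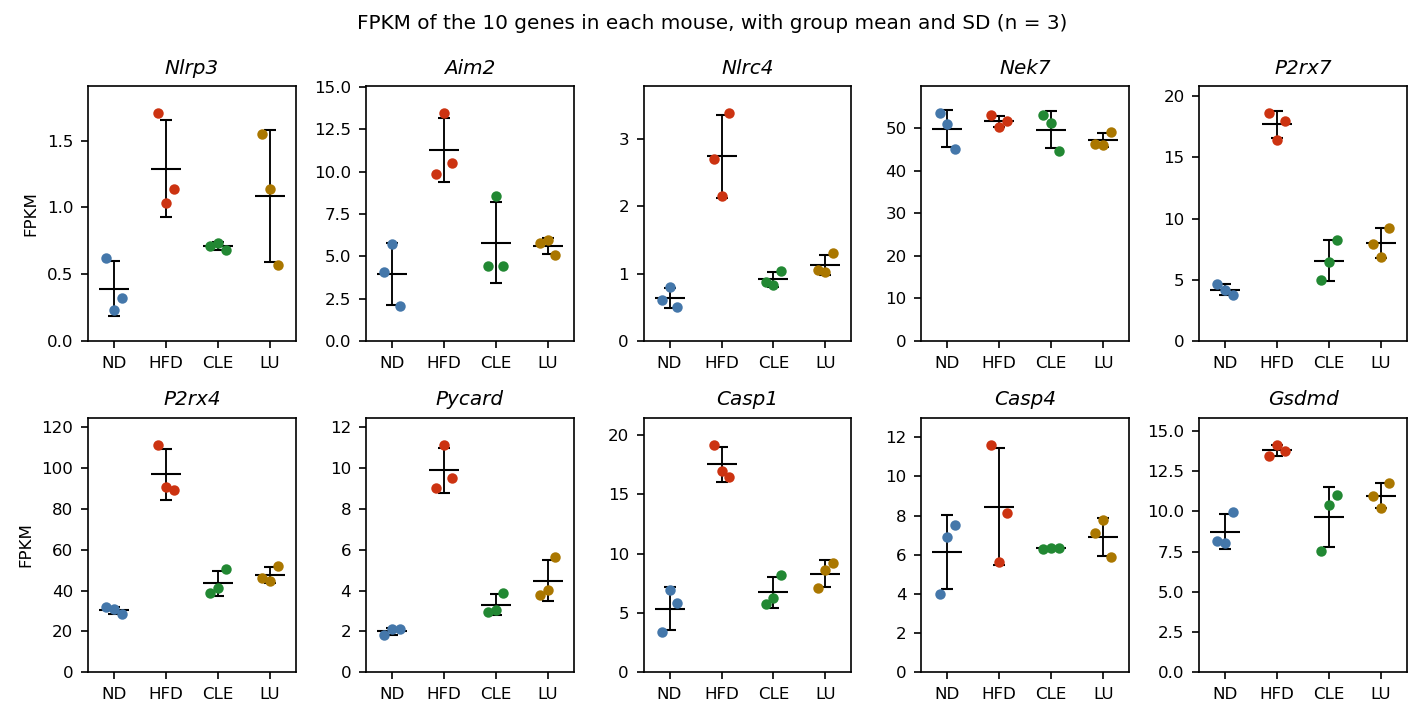
FPKM of each of the 10 genes (vertical axes, each starting at 0) in the 3 mice of the ND, HFD, CLE and LU groups. Points are mice, and horizontal bars with error bars are the group mean and SD (n = 3). The HFD mice lie above all ND mice in 8 panels, and *Nek7* stays between 44.7 and 53.5 in all 12 mice.

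HFD feeding went with higher RNA of most of the inflammasome genes. Of the 10 genes, 8 were called higher in HFD than in ND and 0 lower, where 14.9% of the genes tested were called higher and 25.6% in either direction. The genes called higher were the sensors *Nlrp3*, *Aim2* and *Nlrc4*, the adaptor *Pycard*, the protease *Casp1*, the pore former *Gsdmd* and the ATP-gated channels *P2rx4* and *P2rx7*, and the genes not called were *Casp4* and *Nek7*. In the same 8 genes, each of the 3 HFD mice was above each of the 3 ND mice, a separation in this direction that 30.2% of the genes tested also had. The median log2 fold change of the 10 genes was 1.28, against -0.02 over all genes tested. For a single gene, an exact two-sided permutation test of 3 against 3 mice cannot go below p = 0.1, the value that these 8 genes had. In whole tissue, a change in the share of cells that carry a transcript and a change in the RNA per cell cannot be told apart.

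Both supplements went with lower RNA of the same components. Between CLE and HFD, 6 of the 10 genes were called lower in the CLE group and 0 higher, where 10.1% of the genes tested were called lower and 16.5% in either direction. Between LU and HFD, 6 genes were called lower and 0 higher, where 7.64% of the genes tested were called lower and 12.4% in either direction. The 6 genes were in both comparisons *Pycard*, *Casp1*, *Aim2*, *Nlrc4*, *P2rx4* and *P2rx7*, and both comparisons share the 3 HFD mice with each other and with the comparison to ND. *Nlrp3* and *Gsdmd* were not called in either. The median log2 fold change of the 10 genes was -0.93 in CLE and -0.85 in LU, against 0.01 and 0.03 over all genes tested. In 8 genes all CLE mice were below all HFD mice, as 26.2% of the genes tested were, and in 8 genes all LU mice were, as 22.1% of the genes tested were.

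**Figure D2:**
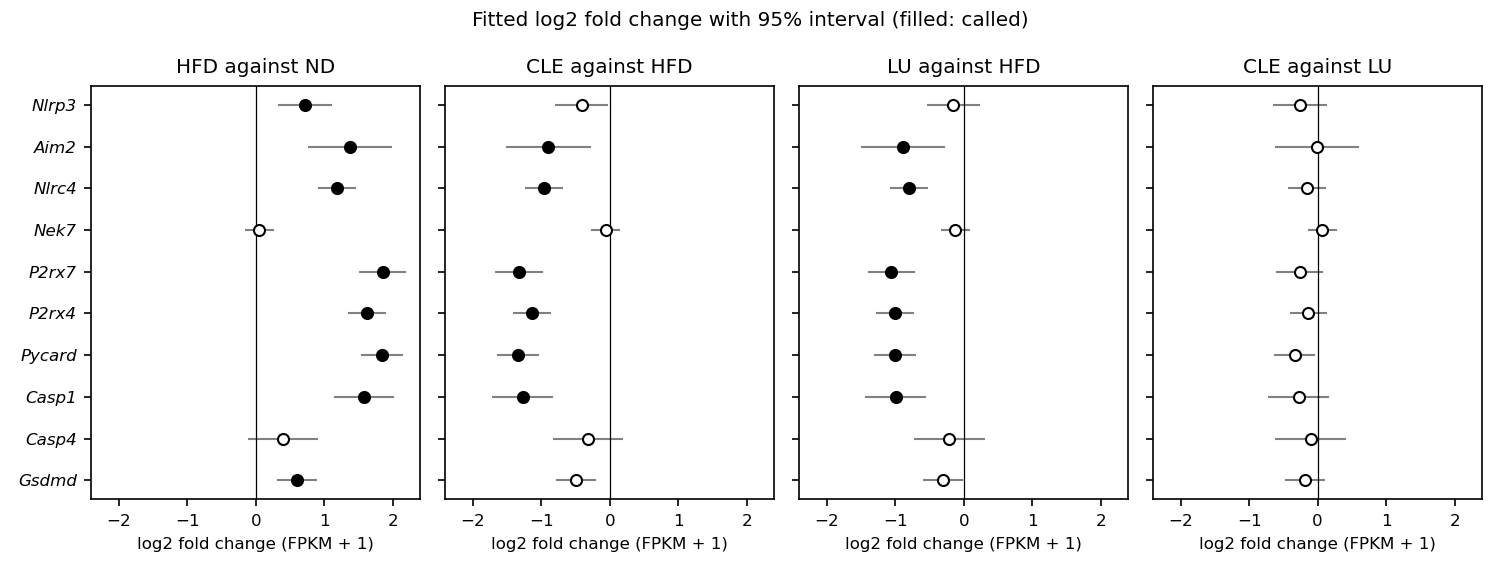
Fitted log2 fold change of FPKM + 1 (horizontal axes) with its 95% confidence interval for each of the 10 genes in 4 comparisons. Filled circles are called genes. The HFD panel holds 8 filled circles to the right of 0, the CLE and LU panels hold 6 each to the left, and no circle is filled between CLE and LU.

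The 250 bases before the RefSeq transcript start are printed for 3 of the genes called in all 3 comparisons and for *Casp4*, which was called in none. The 3 genes printed are those that held the ETS motif described below. RefSeq (GRCm38.p6) gave 12 such windows for 9 of the 10 genes, with *Gsdmd* unmatched. They were searched on both strands for 5 short motifs chosen with the windows in view. AGGAAGT, read here as a PU.1-like ETS motif after a factor of macrophages and B cells, was in the windows of *Pycard*, *Aim2* and *Nlrc4*, and in 7.69% of all 32851 windows. *Casp1*, *P2rx4* and *P2rx7*, also called in all 3 comparisons, lacked it, and their windows are not printed. The NF-kB motif, GGG and TTTCC with any 2 bases between, was in the windows of *Casp4* alone and in 1.41% of all windows. TTGCNNAA, a C/EBP motif, was in the windows of *Pycard* and *Nlrc4* and in 9.56% of all. TGANTCA, an AP-1 motif, was in 1 of the 2 windows of *P2rx7* and in 6.75% of all, and the interferon regulatory factor motif, GAAA and GAAA with any 2 bases between, was in none of the 12 and in 2.98% of all. A match is a string of letters and no evidence of binding. Each sequence runs 5′ to 3′ in the direction of its gene and ends at the base before the transcript start, with motif matches in capitals. That of *Aim2* lies inside the longer gene of the GENCODE annotation.
Pycard (chr7:127993868-127994117, minus strand): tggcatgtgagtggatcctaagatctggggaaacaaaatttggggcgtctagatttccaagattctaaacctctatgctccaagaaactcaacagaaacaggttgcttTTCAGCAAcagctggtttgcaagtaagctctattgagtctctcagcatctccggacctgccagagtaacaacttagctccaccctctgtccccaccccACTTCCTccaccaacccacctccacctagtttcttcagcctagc
Nlrc4 (chr17:74459109-74459358, minus strand): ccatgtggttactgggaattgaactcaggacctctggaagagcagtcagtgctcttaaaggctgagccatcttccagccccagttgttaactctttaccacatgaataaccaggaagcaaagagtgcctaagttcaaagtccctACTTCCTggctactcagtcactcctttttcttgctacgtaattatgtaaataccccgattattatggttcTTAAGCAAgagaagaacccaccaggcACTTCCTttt
Aim2 (chr1:173420354-173420603, plus strand): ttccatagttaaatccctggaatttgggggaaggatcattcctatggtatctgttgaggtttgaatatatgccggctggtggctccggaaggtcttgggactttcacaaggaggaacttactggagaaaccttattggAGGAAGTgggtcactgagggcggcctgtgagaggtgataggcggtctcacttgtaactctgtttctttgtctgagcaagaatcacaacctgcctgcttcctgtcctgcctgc
Casp4 (chr9:5308599-5308848, plus strand): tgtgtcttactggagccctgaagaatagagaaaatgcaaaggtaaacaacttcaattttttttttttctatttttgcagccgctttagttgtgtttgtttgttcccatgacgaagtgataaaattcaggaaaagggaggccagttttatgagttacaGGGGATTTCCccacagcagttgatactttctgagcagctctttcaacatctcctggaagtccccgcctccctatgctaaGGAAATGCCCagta
In *Pycard* the ETS letters stand 44 to 38 bases before the start and read ACTTCCT, the motif on the other strand. *Nlrc4* holds the same letters at 106 to 100 and again at 10 to 4 bases before the start, and *Aim2* holds AGGAAGT at 112 to 106 bases. The 2 NF-kB matches of *Casp4* stand 93 to 84 and 14 to 5 bases before the start.

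Among the sensors, *Nlrp3* (chromosome 11, 59541568 to 59566956 in GRCm38) encodes the sensor that responds to many forms of cell stress, including potassium loss. Its FPKM was 0.624, 0.230 and 0.322 in the ND mice and 1.71, 1.03 and 1.14 in the HFD mice. The CLE mice had 0.712, 0.738 and 0.683 FPKM, and the LU mice had 1.55, 1.14 and 0.568. The ND and HFD mice did not overlap, and the LU mice overlapped both. The mean rose 3.30-fold from ND to HFD (log2 fold change 0.72, standard error, SE, 0.17, adjusted p = 0.00471). The log2 fold change was -0.41 (SE 0.17, adjusted p = 0.0865) in CLE against HFD and -0.15 (SE 0.17, adjusted p = 0.545) in LU against HFD. The call for HFD was lost with quantile normalization (0.54) and without the 4 libraries whose labels carry the letter R (0.49, adjusted p = 0.116), which leaves ND mouse 2 alone in its group.

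*Aim2* (chromosome 1, 173350879 to 173466040) encodes a sensor of double-stranded DNA in the cytosol. It was at 4.08, 5.71 and 2.04 FPKM in the ND mice and at 9.86, 13.4 and 10.5 FPKM in the HFD mice. The CLE mice had 4.41, 8.54 and 4.45 FPKM, and the LU mice had 5.78, 5.98 and 5.04. Every HFD mouse was above every mouse of the other 3 groups, with CLE mouse 4 nearest to them. The log2 fold change was 1.37 in HFD against ND (SE 0.27, adjusted p = 0.00157), -0.89 in CLE against HFD (SE 0.27, adjusted p = 0.0266) and -0.89 in LU against HFD (SE 0.27, adjusted p = 0.0335). Its SE was the largest of the 10. The call for CLE was lost without HFD mouse 15 (adjusted p = 0.0930), HFD mouse 18 (0.0556), CLE mouse 2 (0.0936) or CLE mouse 11 (0.0805). The call for LU was lost without any 1 of the 6 mice compared, with adjusted p from 0.0604 to 0.110. Without the filter on low values, the adjusted p was 0.0582 for CLE and 0.0712 for LU, and with a pseudocount of 0.1 it was 0.0563 for LU.

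*Nlrc4* (chromosome 17, 74425438 to 74459142) encodes the sensor that assembles with NAIP proteins on bacterial flagellin and secretion system parts. It was at 0.612, 0.799 and 0.511 FPKM in the ND mice and at 2.70, 2.15 and 3.38 FPKM in the HFD mice. In CLE it was at 0.879, 0.829 and 1.04 FPKM, and in LU at 1.05, 1.03 and 1.30. The lowest HFD mouse was above the highest mouse of each other group, and all CLE and LU mice were above all ND mice. The mean rose 4.28-fold from ND to HFD (log2 fold change 1.18, SE 0.12, adjusted p = 1.27e-05). It was 3.003-fold lower in CLE than in HFD (log2 fold change -0.96, SE 0.12, adjusted p = 0.000139) and 2.43-fold lower in LU than in HFD (log2 fold change -0.80, SE 0.12, adjusted p = 0.000766).

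*Nek7* (chromosome 1, 138482875 to 138620141) encodes a kinase of cell division that binds NLRP3 and is needed for its assembly. It was at 53.5, 51.1 and 45.2 FPKM in the ND mice and at 53.0, 50.3 and 51.6 FPKM in the HFD mice. Values of 53.0, 51.3 and 44.7 FPKM were found in CLE, and of 46.4, 46.2 and 49.2 in LU. All LU mice were below all HFD mice, while the other groups overlapped. The log2 fold change was 0.05 in HFD against ND (95% confidence interval -0.15 to 0.25, adjusted p = 0.660). It was -0.06 in CLE against HFD (-0.25 to 0.14, adjusted p = 0.655) and -0.13 in LU against HFD (-0.32 to 0.07, adjusted p = 0.329). The sign between HFD and ND turned with quantile normalization (-0.02) and without the libraries with the letter R (-0.05).

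The ATP-gated channels had some of the largest changes. *P2rx7* (chromosome 5, 122643911 to 122691432) encodes the channel through which extracellular ATP lets potassium leave the cell, a classical trigger of NLRP3. It was at 4.66, 4.14 and 3.73 FPKM in the ND mice and at 18.6, 16.4 and 18.01 FPKM in the HFD mice. In the CLE mice the values were 4.97, 6.49 and 8.24 FPKM, and in LU they were 7.93, 6.85 and 9.23. No HFD mouse overlapped any other group, and all CLE and LU mice were above all ND mice. The mean rose 4.23-fold from ND to HFD (log2 fold change 1.85, SE 0.15, adjusted p = 2.72e-06). It was 2.69-fold lower in CLE than in HFD (log2 fold change -1.33, SE 0.15, adjusted p = 7.91e-05) and 2.21-fold lower in LU than in HFD (log2 fold change -1.06, SE 0.15, adjusted p = 0.000604).

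*P2rx4* (chromosome 5, 122707544 to 122729738) encodes a channel of the same family that is kept largely in lysosomes and opens at lower ATP concentrations. It was at 32.0, 30.8 and 28.7 FPKM in the ND mice and at 111, 90.4 and 89.0 FPKM in the HFD mice. CLE mice had 38.9, 41.1 and 50.6 FPKM, and the LU mice had 46.0, 44.9 and 52.1. The HFD mice stood apart from all others, and the CLE and LU mice lay between them and the ND mice. The mean rose 3.18-fold from ND to HFD (log2 fold change 1.63, SE 0.12, adjusted p = 1.48e-06). It was 2.23-fold lower in CLE than in HFD (log2 fold change -1.14, SE 0.12, adjusted p = 5.38e-05) and 2.03-fold lower in LU than in HFD (log2 fold change -1.004, SE 0.12, adjusted p = 0.000242). *P2rx7* and *P2rx4* are neighbours on the plus strand, with 16111 bases between them.

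*Pycard* (chromosome 7, 127989708 to 127993867) encodes ASC, the adaptor that links most sensors to caspase-1. It was at 1.82, 2.10 and 2.12 FPKM in the ND mice and at 9.02, 11.1 and 9.51 FPKM in the HFD mice. In CLE the values were 2.97, 3.05 and 3.89 FPKM, and in LU they were 3.78, 4.01 and 5.61. The order of the groups was ND, CLE, LU and HFD, and only CLE and LU overlapped. The mean rose 4.91-fold from ND to HFD, the largest ratio among the 10 genes (log2 fold change 1.85, SE 0.13, adjusted p = 1.39e-06). It was 2.99-fold lower in CLE than in HFD (log2 fold change -1.34, SE 0.13, adjusted p = 4.00e-05) and 2.21-fold lower in LU than in HFD (log2 fold change -1.003, SE 0.13, adjusted p = 0.000421).

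*Casp1* (chromosome 9, 5298517 to 5307265) encodes caspase-1, the protease that matures IL-1β and IL-18 and cuts gasdermin D. It was at 3.39, 6.91 and 5.80 FPKM in the ND mice and at 19.1, 16.9 and 16.4 FPKM in the HFD mice. The CLE mice had 5.72, 6.23 and 8.22 FPKM, and the LU mice had 7.09, 8.63 and 9.23. The lowest HFD mouse was above the highest mouse of each other group, and the CLE mice overlapped the ND mice. The mean rose 3.26-fold from ND to HFD (log2 fold change 1.58, SE 0.20, adjusted p = 5.57e-05). It was 2.60-fold lower in CLE than in HFD (log2 fold change -1.27, SE 0.20, adjusted p = 0.000557) and 2.10-fold lower in LU than in HFD (log2 fold change -0.99, SE 0.20, adjusted p = 0.00382).

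*Casp4* (chromosome 9, 5308828 to 5336783) encodes mouse caspase-11, which binds bacterial lipopolysaccharide in the cytosol and cuts gasdermin D without an inflammasome sensor. It starts 1562 bases past the end of *Casp1*, on the same strand. It was at 3.98, 6.90 and 7.51 FPKM in the ND mice and at 11.6, 5.65 and 8.11 FPKM in the HFD mice. With CLE it was at 6.28, 6.36 and 6.37 FPKM, and with LU at 7.11, 7.78 and 5.87. All groups overlapped in these sums, and the HFD mice were spread most, with HFD mouse 15 below every CLE and LU mouse. The log2 fold change was 0.40 in HFD against ND (95% confidence interval -0.11 to 0.90, adjusted p = 0.171). Without HFD mouse 15 it was 0.63 (adjusted p = 0.0389) and was called. It was -0.32 in CLE against HFD (-0.82 to 0.19, adjusted p = 0.313) and -0.21 in LU against HFD (-0.72 to 0.29, adjusted p = 0.521).

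*Gsdmd* (chromosome 15, 75862327 to 75867408) encodes gasdermin D, the pore former that caspase-1 and caspase-11 release. It was at 8.16, 8.06 and 9.98 FPKM in the ND mice and at 13.4, 14.1 and 13.8 FPKM in the HFD mice. The CLE mice had 7.53, 10.4 and 11.03 FPKM, and the LU mice had 10.98, 10.2 and 11.7. The HFD mice were above all others, by a smaller margin than for the adaptor and caspase-1. The mean rose 1.58-fold from ND to HFD (log2 fold change 0.61, SE 0.13, adjusted p = 0.00205), close to the fold threshold. The call was lost without ND mouse 2 (log2 fold change 0.57) or ND mouse 3 (0.56), with quantile normalization (0.54) and with array weights (0.55), while the adjusted p stayed below 0.05. The log2 fold change was -0.49 in CLE against HFD (SE 0.13, adjusted p = 0.0118, under the fold threshold) and -0.31 in LU against HFD (SE 0.13, adjusted p = 0.0966).

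The values of *Gsdmd*, *Aim2* and *Casp4* depended on which transcripts were summed. The authors' table lists transcripts of the Ensembl annotation and further ones that were assembled from the reads and share at least 1 splice junction with an annotated transcript, marked with the class code j. The share of the j transcripts in a gene's sum was 55.5% for *Gsdmd* and 43.7% for *Aim2*, 26.9% for *Casp4* and 26.0% for *Nlrc4*, and between 1.54% (*Nek7*) and 21.7% (*Casp1*) for the other 6 genes. The single annotated transcript of *Gsdmd* averaged 2.91 FPKM in ND, 7.57 in HFD, 3.71 in CLE and 4.99 in LU. On that transcript alone *Gsdmd* was called lower in CLE than in HFD (log2 fold change -0.86, adjusted p = 0.000310) and higher in LU than in ND (0.61, adjusted p = 0.00794). *Aim2* was spread over 20 transcripts, and the highest, with 25.4% of the sum, has no annotated coding sequence. Without the j transcripts the log2 fold change of *Aim2* was 1.33 in HFD against ND (adjusted p = 0.0597), -1.18 in CLE against HFD (adjusted p = 0.120) and -0.85 in LU against HFD (adjusted p = 0.277), and none was called. On the highest transcript of *Casp4*, with 34.5% of its sum, the HFD mice had 3.35, 3.54 and 3.12 FPKM. The ND mice had 1.72, 2.24 and 2.45, the CLE mice 2.12, 1.42 and 2.28, and the LU mice 3.06, 1.83 and 1.66. All HFD mice were above all others there, but no comparison with HFD was called. Another coding transcript of *Casp4* was at 7.13e-17 FPKM in HFD mouse 15, against 3.99 and 2.78 in HFD mice 12 and 18. The first 16817 bases of the *Aim2* gene overlap *Cadm3* on the opposite strand, and 599 bases of *Pycard* overlap *Gm45205* likewise. So do 34395 bases of *Nek7* with *Gm28501*. On its own strand, *Nek7* overlaps *Gm37101* and *Gm37080*, *Nlrc4* overlaps *CT033749.1*, and *P2rx7* overlaps *Mir8115*. The libraries did not keep the strand, so reads in these stretches cannot be told apart.

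The supplemented groups were also compared with ND. Between CLE and ND, 0 of the 10 genes were called with limma, 3 had an unadjusted p under 0.05, and 2.91% of the genes tested were called. These 3 were *P2rx4* with a log2 fold change of 0.49 (adjusted p = 0.0402, under the fold threshold), *Pycard* with 0.51 (adjusted p = 0.0502) and *P2rx7* with 0.53 (adjusted p = 0.0621). Without CLE mouse 2, which had the lowest *P2rx7* of its group, *P2rx7* was called (0.69, adjusted p = 0.0202). Between LU and ND, 3 genes were called higher and 0 lower, where 4.97% of the genes tested were called higher and 6.59% in either direction. They were *Pycard* with a log2 fold change of 0.85 (SE 0.13, adjusted p = 0.00297), *P2rx7* with 0.79 (SE 0.15, adjusted p = 0.00691) and *P2rx4* with 0.63 (SE 0.12, adjusted p = 0.00720). *P2rx4* fell under the fold threshold without ND mouse 4 (0.58) or LU mouse 8 (0.56), with quantile normalization (0.58) and on its highest transcript (0.51). Without the 4 libraries with the letter R, which leaves ND mouse 2 alone in its group, the calls of *P2rx7* (0.66, adjusted p = 0.171) and *P2rx4* (0.58, adjusted p = 0.138) were both lost. Other genes missed the threshold narrowly and were called without a single mouse, namely *Nlrp3* (0.57, adjusted p = 0.0514) without ND mouse 2 (0.68) or LU mouse 8 (0.76), and *Casp1* (0.59, adjusted p = 0.0732) without ND mouse 3 (0.76). All CLE mice were above all ND mice in 5 genes, as in 13.2% of the genes tested, and all LU mice in 6 genes, as in 18.5% of the genes tested.

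The extract and luteolin were compared directly, at the doses given in the diets, which differ. Of the 10 genes, 0 were called with limma and 1 had an unadjusted p under 0.05, where 0.00783% of the genes tested, a single gene, were called. The gene was *Pycard*, with 3.30 ± 0.512 FPKM (SD, n = 3) in CLE and 4.47 ± 0.998 FPKM (SD, n = 3) in LU, a log2 fold change of -0.34 (95% confidence interval -0.63 to -0.05, adjusted p = 0.891). The groups overlapped in all 10 genes, while 9.03% of the genes tested had groups that did not. The log2 fold change of CLE against LU was below 0 in 9 genes, with a median of -0.17 against -0.03 over all genes tested. The intervals of *Casp1* (-0.71 to 0.15), *Nlrp3* (-0.63 to 0.12), *P2rx7* (-0.59 to 0.06), *Aim2* (-0.61 to 0.59) and *Casp4* (-0.61 to 0.40) reach past the fold threshold, as that of *Pycard* does. Those of *Gsdmd* (-0.46 to 0.09), *Nlrc4* (-0.41 to 0.11), *P2rx4* (-0.40 to 0.13) and *Nek7* (-0.13 to 0.26) do not. For *Nlrc4*, a low gene, this holds on the log2(FPKM + 1) scale only, which makes its changes look smaller.

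Other genes of the pathway were taken from a list of 81, of which 78 were measured and 65 tested. In HFD against ND, 29 were called higher and 3 lower (median log2 fold change 0.45), where 14.9% of all genes tested were called higher. In CLE against HFD, 20 were called lower and 1 higher (median -0.34), and in LU against HFD, 19 were called lower and 1 higher (median -0.21). Of all genes tested, 10.1% were called lower in CLE and 7.64% in LU. In LU against ND 12 were called higher, where 4.97% of all genes tested were. In CLE against ND 1 was called higher, where 2.91% of all genes tested were called in either direction. Some of the 65 genes reached 1 FPKM in the HFD mice only, as given below.

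**Figure D3:**
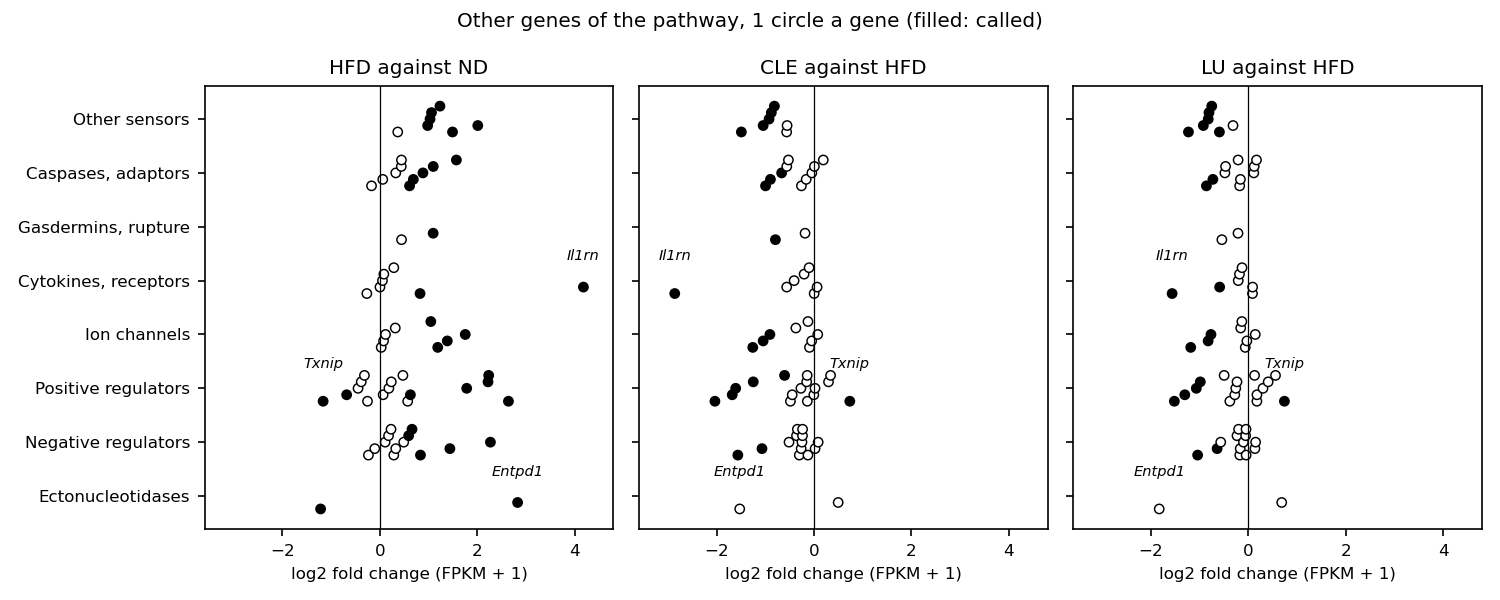
Log2 fold change of FPKM + 1 (horizontal axes) of the 65 other pathway genes that were tested, 1 circle per gene, in rows by role and in 3 comparisons. Filled circles are called genes. *Il1rn* rose most in HFD (4.18), *Txnip* fell (-1.16) and was higher in CLE (0.73) and LU (0.74), and the spread mice of *Entpd1* leave its CLE and LU circles open.

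Of the other sensors, 6 of 7 tested were called higher in HFD, 5 lower in CLE and 6 lower in LU. *Naip2*, *Naip5* and *Naip6*, which encode the ligand receptors that act with NLRC4, rose with it: *Naip2* from 1.13 ± 0.0516 to 7.62 ± 0.623 FPKM (SD, n = 3), with 2.07 in CLE and 2.68 in LU. *Nlrp1a* and *Nlrp10* were also called in all 3 comparisons, and *Nlrp1b* in HFD and LU. In CLE *Nlrp1b* was just under the fold threshold (-0.55, adjusted p = 0.00714). *Nlrp1a* (mean 0.147 FPKM in ND and 1.39 in HFD) and *Nlrp10* (0.278 and 1.61) reached 1 FPKM in the HFD mice only. Both therefore entered the test through the group in which they were higher. The NAIP and NLRP1 genes are close paralogs that share reads, so the split among them is uncertain. Among the other caspases and adaptors, *Casp9*, *Card9*, *Ripk3* and *Mlkl* rose in HFD, *Card9* and *Ripk3* were lower in CLE, and *Card9* was lower in LU. *Casp9* had an adjusted p under 0.05 but missed the fold threshold in CLE (-0.56) and LU (-0.47), as did *Ripk3* in LU (-0.48). RIPK3 and MLKL carry out necroptosis, another lytic death. *Ninj1*, whose protein ruptures the membrane after the gasdermin pores, was at 20.4 ± 2.78 FPKM in ND and 44.6 ± 2.42 in HFD (SD, n = 3), and it was called lower in CLE (-0.79) but under the fold threshold in LU (-0.54).

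The cytokines that caspase-1 matures were not among the called genes. *Il1b*, which encodes the IL-1β precursor, stayed mostly below 1 FPKM and was not tested, with 0.673, 1.35 and 0.318 FPKM in the ND mice and 0.429, 0.192 and 0.577 FPKM in the HFD mice. *Il1a* was below 1 FPKM in all libraries. *Il18* was at 3.46 ± 0.515 FPKM in ND and 3.46 ± 0.224 in HFD (SD, n = 3). Its fitted log2 fold change was 0.00 in HFD against ND (SE 0.18, adjusted p = 0.988), -0.20 in CLE against HFD and -0.18 in LU against HFD. *Il33* was at 1.82 FPKM in ND and 1.92 in HFD and was not called in these 3 comparisons. *Il1rn*, which encodes the antagonist of the IL-1 receptor, rose from 0.248, 0.963 and 0.183 FPKM in the ND mice to 21.5, 25.5 and 28.1 FPKM in the HFD mice (log2 fold change 4.18, SE 0.39, adjusted p = 7.76e-06). It was lower in CLE (-2.86) and in LU (-1.56), and CLE mouse 11 at 6.52 FPKM stood apart from CLE mice 2 and 4 at 0.843 and 2.27 FPKM. *Il1rap*, the shared receptor subunit, rose in HFD (0.83) and was called lower in LU (-0.59). In CLE it was just under the fold threshold (-0.56, adjusted p = 0.00172).

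Among channels upstream of NLRP3, 4 of 8 tested rose in HFD, namely *Panx1*, which releases ATP, the potassium channels *Kcnk6* and *Kcnk13*, and *Clic1*, and all but *Panx1* were lower in CLE and in LU. Among the positive regulators, *Syk*, *Pstpip1*, *Btk* and *Tmem173* were called higher in HFD and *Txnip* and *Gbp7* lower, while *Cgas* was called only in CLE against HFD (-0.61). In HFD against ND *Cgas* was just under the fold threshold (0.57, adjusted p = 0.000625). *Cgas* reached 1 FPKM in the HFD mice only and so entered the test through them. *Txnip*, whose protein binds NLRP3 and also limits glucose uptake, was at 1559 ± 230.0 FPKM in ND and 691 ± 35.7 in HFD (SD, n = 3). Of the 13 negative regulators tested, *Nlrc3*, *Tmem176a*, *Tmem176b*, *Trim30a* and *Tnfaip3* rose in HFD, and *Tmem176a* and *Tmem176b* were lower in both supplemented groups. *Nlrc3*, like *Cgas*, reached 1 FPKM in the HFD mice only. Its log2 fold change was under the fold threshold in CLE (-0.51, adjusted p = 0.00184) and in LU (-0.57, adjusted p = 0.00164). Of the enzymes that remove the ATP sensed by P2X7, *Entpd1* rose (2.83, adjusted p = 0.00812) with 37.6, 133 and 163 FPKM in the HFD mice against 13.7, 10.3 and 13.3 in the ND mice, and *Nt5e*, which acts on its product, fell (-1.22, adjusted p = 0.00139). CLE mouse 4 had 118 FPKM of *Entpd1*, and the other CLE mice 15.2 and 17.4.

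Markers of macrophages and monocytes moved in the same direction as the inflammasome genes. Of 12 such markers, all tested, 10 were called higher in HFD (median log2 fold change 2.36), 9 lower in CLE (-1.71) and 9 lower in LU (-1.28), and *Mertk* and *Cd163* were called in none of the 3. Over all genes tested, 14.9% were called higher in HFD, 10.1% lower in CLE and 7.64% lower in LU. In either direction, 25.6% were called in HFD, 16.5% in CLE and 12.4% in LU, the shares for the lists below that moved the other way. The summed FPKM of the list was 384 to 559 in the ND mice, 2356 to 2691 in the HFD mice, 652 to 908 in the CLE mice and 983 to 1103 in the LU mice. The order of the sums was thus ND, CLE, LU and HFD, without overlap. *Lyz2* was the largest part of them, with 431 to 625 FPKM in the CLE mice and 694 to 758 in the LU mice. Between CLE and LU, 0 of the 12 markers were called, and the group means of *Cd14*, *Mertk* and *Cd163* had another order. The group means of every inflammasome gene except *Aim2* and *Nek7* had the order of the sums, though CLE and LU mice overlapped in each gene. Between LU and ND 9 of these markers were called higher, where 4.97% of all genes tested were. Between CLE and ND 6 were, where 2.91% of all genes tested were called in either direction. Mast cell markers also followed, with 4 of 4 tested called higher in HFD and lower in CLE and LU, at summed levels of 3.68 to 5.83 FPKM in ND and 9.05 to 18.7 in HFD. Of the neutrophil list, 3 of 7 genes could be tested, of which 2 were called higher in HFD and 1 lower, and of the dendritic cell list, 5 of 6, of which 2 were called higher. The 3 T and NK cell markers tested had a median log2 fold change of 0.14 in HFD, -0.26 in CLE and 0.06 in LU. Adipocyte markers were at 27133 to 28860 FPKM in ND and 15920 to 18003 in HFD, with 6 of 8 called lower and *Lep* higher, and at 23964 to 25927 in CLE and 22528 to 27804 in LU. Of 5 endothelial markers 1 was called lower in HFD, 3 higher in CLE and 4 higher in LU. Of 4 mesothelial markers 3 were called lower in HFD (median log2 fold change -1.74), with sums of 8.46 to 48.0 FPKM in ND, 2.27 to 6.56 in HFD, 6.34 to 11.4 in CLE and 5.23 to 14.6 in LU. Of 5 liver genes 2 were called lower in HFD and 1 higher in CLE, with sums of 15.9 to 34.4 FPKM in ND, 2.63 to 11.4 in HFD, 8.39 to 28.8 in CLE and 5.56 to 7.66 in LU. Epididymis markers, which would show tissue taken along with the fat pad, summed to at most 5.64 FPKM. The part of the cell type make-up in the levels of the inflammasome genes was not tested.

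**Figure D4:**
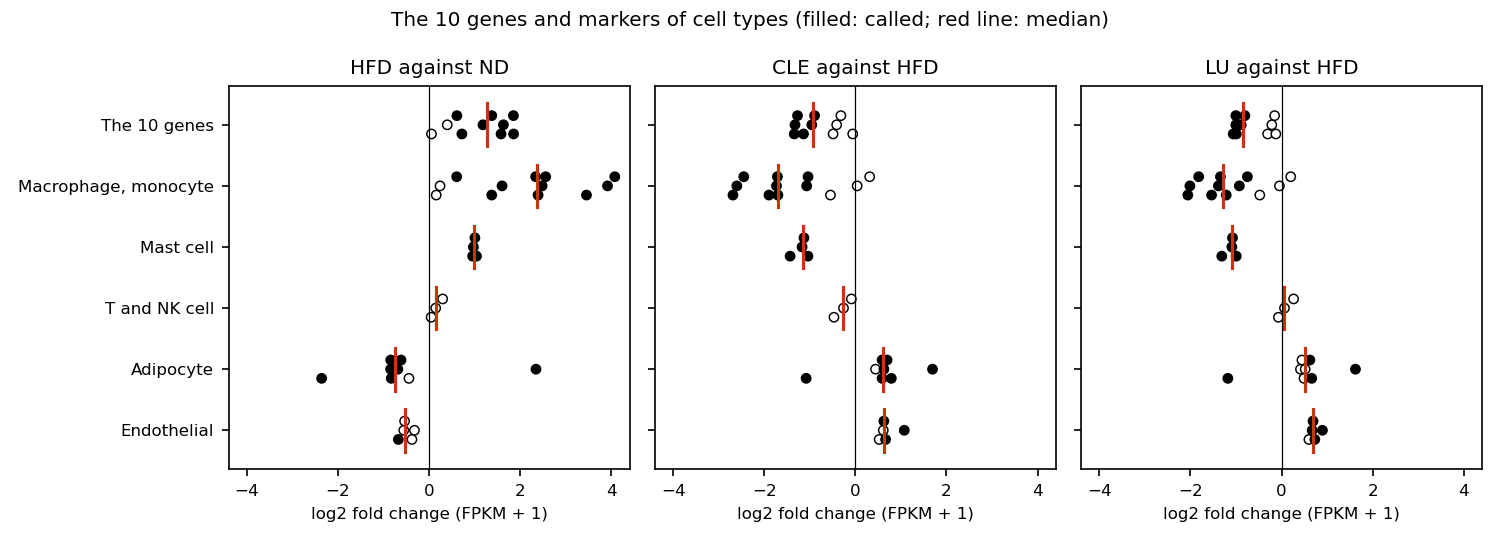
Log2 fold change of FPKM + 1 (horizontal axes) of the 10 inflammasome genes and of the tested markers of 5 cell types in 3 comparisons, 1 circle per gene. Filled circles are called genes and red lines medians. The macrophage and monocyte medians (2.36, -1.71 and -1.28) lie further from 0 than those of the 10 genes (1.28, -0.93 and -0.85), on the same side.

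The labels put the letter R on the libraries of ND mice 3 and 4, of CLE mouse 4 and of LU mouse 2. HFD libraries lack it, so a contrast with HFD cannot be made within that set. When the letter was added to the limma fit, no term for it passed an adjusted p of 0.05 (0 of the genes tested, 525 at an unadjusted p under 0.05), and its adjusted p was 0.9998 for each of the 10 genes. FPKM summed over genes gave 435095 to 455040 per library. Read numbers are not part of the table, and the depth of the libraries is therefore unknown.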

How the data were processed

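RNA of eWAT was measured in 12 libraries made with an unstranded kit, 3 mice per group, grouped by the diet in the labels. The column of ND mouse 4 has another heading and was assigned by its number and the letter R. The authors processed the reads with CASAVA 1.8.2, Bowtie2 2.2.3, TopHat2 2.0.12 and Cufflinks 2.2.1, per the labels, and deposited FPKM values for 152210 transcripts in 15 columns. Of these columns, 3 fit no sample label and were left out, as were columns of the authors' own comparisons, which hold their fold changes and calls. Rows of annotated transcripts, and of assembled ones with class code = or j, were summed to 22947 genes. Positions are from GENCODE M21 (GRCm38), in which 77000 of 78786 annotated transcripts were found.

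The sums were tested as log2(FPKM + 1) with limma 3.58.1 in R 4.3.3, with 1 coefficient per group, all 12 libraries in 1 fit, genes with at least 1 FPKM in at least 3 libraries, and no covariate. Benjamini-Hochberg adjustment ran over the 12775 genes of each comparison. The study's own test needs counts, and the table has FPKM, so limma took its place. Single genes were also compared with an exact permutation test. Mice of a group are separate animals, and depth, and so counting error, is unknown. Tables and plots used Python 3.11.15, pandas 2.3.3, numpy 2.4.6 and matplotlib 3.10.9. The 10 genes, the pathway and marker lists and the alternatives were chosen with earlier results of these data known. Other pathway genes are named where called in at least 1 of the comparisons of HFD, CLE and LU, and cytokine substrates always, except for 2 genes whose results are not reported here. *Card8*, *Irf8* and *Irgb10* were not analysed here.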

Additional observations from a re-analysis of the deposited data

How the results depend on the processing

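The 10 genes were recomputed under 27 settings. In 1566 recomputed fold changes of a single gene, 1486 kept their direction and their side of the threshold, 33 lost a call, 17 gained one, and 30 turned sign, all of them uncalled before and after. Leaving out 1 mouse at a time, 7 to 9 genes were called for HFD against ND, 5 to 6 for CLE against HFD, 5 to 6 for LU against HFD, 0 to 1 for CLE against ND, 2 to 4 for LU against ND and 0 for CLE against LU. With genes of a mean FPKM of at least 5 only, 7 of the 10 remained in the test and 5 were called for HFD against ND. For CLE against ND, 1 gene was called with a pseudocount of 0.1 and 1 with the adjusted p alone, and for LU against ND, 5 with a pseudocount of 0.1. Mouse numbers were not taken to pair animals across groups (correlations of the deviations of mice with the same number lay between -0.0989 and 0.189). The labels do not explain the numbers, and so few mice cannot exclude a pairing. With the number as a replicate block, 2 genes were called for LU against ND (*Pycard* and *Nlrp3*, with *P2rx4* at adjusted p = 0.0785 and *P2rx7* at 0.0863), 0 for CLE against ND and 0 for CLE against LU, and it could not be fitted against HFD, which shares no number. Signs that turned were, for *Nek7*, HFD against ND with quantile normalization (-0.017) and without the letter R libraries (-0.051), and CLE against ND with equal totals (0.016), array weights (0.065), the highest transcript (0.0014) and the block (0.084). For CLE against ND they were *Casp4* with array weights (-0.048) and the highest transcript (-0.099), *Gsdmd* with the block (-0.041) and *Nlrc4* without class code j (-0.011). *Aim2* turned for LU against ND with the highest transcript (-0.26) and for CLE against LU with equal totals (0.011), median ratios (0.019), quantile normalization (0.039), array weights (0.11), the highest transcript (0.56) and the block (0.31). Without 1 mouse, signs turned within -0.018 to 0.10 for *Nek7* and HFD against ND, -0.11 to 0.014 for *Nek7* and CLE against HFD, -0.31 to 0.040 for *Nlrp3* and LU against HFD, -0.44 to 0.018 for *Casp4* and LU against HFD, -0.16 to 0.23 for *Casp4* and CLE against ND, -0.076 to 0.065 for *Nek7* and CLE against ND, -0.056 to 0.33 for *Casp4* and LU against ND, and -0.28 to 0.13 for *Aim2* and CLE against LU. The causes were not tested.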
